A study of Mus musculus with 6 samples.

Results

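Klb and 9 further genes of the fibroblast growth factor (FGF) system were followed in mouse hepatocyte-derived cells: the klotho co-receptors Klb and Kl, the receptors Fgfr1, Fgfr2, Fgfr3, Fgfr4 and Fgfrl1, and the ligands Fgf1, Fgf2 and Fgf7. They were looked up by symbol, and all 10 were among the 49585 genes of the count table. The set was chosen by name with the measured fall of Klb already known. The differences between the groups are therefore given for these 10 genes as a description, without p-values. The cells were AML12, a line derived from hepatocytes of a mouse transgenic for human TGF-alpha, so every library comes from 1 immortalised line. EGFP libraries 1 to 3 came from cells transfected with the open reading frame of a green fluorescent protein, the control. Zac1 libraries 4 to 6 came from cells given that of Zac1, a transcription factor with zinc fingers that the imprinted gene Plagl1 encodes. PolyA RNA was sequenced 24 h after transfection. The labels do not say whether the 3 libraries of a group are separate cultures. The p-values below therefore rest on the spread between these libraries alone, and that spread may be technical.

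FGF receptors are tyrosine kinases that sit in the plasma membrane and signal through the adaptor FRS2 to the RAS-ERK pathway. Paracrine FGFs such as FGF1, FGF2 and FGF7 bind their receptors together with heparan sulfate. Endocrine FGFs bind heparan sulfate weakly and need a klotho protein as co-receptor: beta-klotho, the product of Klb, for FGF15 (FGF19 in humans) and FGF21, and alpha-klotho, the product of Kl, for FGF23. In liver, FGF15 acts on hepatocytes through beta-klotho and FGFR4 and represses bile acid synthesis. FGF21, by contrast, acts mainly through beta-klotho and FGFR1.

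The sequences before the start sites of Klb, Fgfr3 and Fgfr4 are shown because Klb and Fgfr3 differed most between the groups among the 6 genes abundant enough to test, and Fgfr4 is the receptor that pairs with beta-klotho in liver. They are parts of the RefSeq promoter windows on GRCm38.p6, plus strand, written 5′ to 3′ and ending where the first annotated exon of the gene begins: chr5:65348161-65348313 for Klb, chr5:33721474-33721673 for Fgfr3 and chr13:55152568-55152641 for Fgfr4. Capitals mark GGGGCCCC, a palindrome of the GC-rich kind described for DNA binding by ZAC1. In Fgfr4 its last 2 bases lie inside the first annotated exon.
Klb: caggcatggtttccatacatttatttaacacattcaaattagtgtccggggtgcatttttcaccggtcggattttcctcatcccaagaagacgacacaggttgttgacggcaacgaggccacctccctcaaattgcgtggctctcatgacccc
Fgfr3: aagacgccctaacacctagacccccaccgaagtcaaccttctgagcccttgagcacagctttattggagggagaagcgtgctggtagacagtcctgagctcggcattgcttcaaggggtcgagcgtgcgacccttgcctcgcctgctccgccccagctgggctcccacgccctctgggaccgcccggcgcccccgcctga
Fgfr4: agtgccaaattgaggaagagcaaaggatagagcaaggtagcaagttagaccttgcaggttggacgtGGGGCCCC

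GGGGCCCC was searched for in the 250 bases before each RefSeq start. The palindrome reads the same on both strands. Of 32851 windows of this length, 292 held it (0.889%). RefSeq windows were matched for 8 of the 10 genes, with 9 windows in all. Of these, only the Fgfr4 window held the motif, with its first base 184 bases before the start. The G and C content of the full 250-base window was 48% for Klb, 66.8% for the Fgfr3 window shown and 64% for Fgfr4, beside a median of 52.4% over all windows. A match describes the letters and is not a binding site, and the absence of a match says only that these letters are not in the window.

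Library totals were 14801240 to 18302538 counted reads. Plagl1 itself had 39, 79 and 67 reads in the EGFP libraries and 106033, 135108 and 148382 in the Zac1 libraries, as the labels say; reads of the transfected construct and of the cells' own gene cannot be told apart there. EGFP 1 and Zac1 4 stood apart from the other 4 libraries on the second principal component (15.5% of the variance), so values without this pair are given where leaving it out changes a call. Of the 12130 genes that averaged 10 or more reads per library, 3.78% passed the test (edgeR quasi-likelihood, adjusted p under 0.05): 3.12% were higher and 0.668% lower in Zac1. Genes that were higher in Zac1 had a median transcript GC content of 55.8% and those that were lower 45.1%, beside 49.4% over all tested genes. With offsets for GC content, 31.7% of the genes past the test were higher, against 82.4% without them; this trend's part in each result was not tested beyond the GC-offset values given below. The hepatocyte identity of the line was partial at the RNA level. Of 17 hepatocyte markers, Apoa2 and Cyp2e1 had no reads and 7 in all were below the count minimum. Of the 10 that were tested, 1 was higher and 1 lower in Zac1 by the edgeR test. Alb stood at 34.6 ± 1.18 CPM (counts scaled to a library of 1000000 reads) in EGFP and 34.7 ± 1.98 in Zac1 (SD, n = 3). Summed hepatocyte markers ran from 4889 to 5220 CPM in EGFP and from 4989 to 5412 in Zac1, and 7 cholangiocyte markers, Krt19 among them, from 785 to 825 and from 760 to 791. Summed stellate or fibroblast markers ran from 0.604 to 1.01 CPM in EGFP and from 2.24 to 2.72 in Zac1, with Lrat, Dcn and Lum at 0. Most of that sum was Col1a1, a fibrillar collagen, with 7, 8 and 14 reads in EGFP and 28, 28 and 42 in Zac1. Csf1r, a macrophage receptor, had 0 reads in each EGFP library and 7, 4 and 19 in Zac1. The part of these markers in the results below was not tested. Endothelial markers stayed at or below 1.25 CPM and macrophage or leukocyte markers at or below 2.55 CPM in every library. In such bulk libraries, fewer cells of a type and less RNA per cell cannot be told apart.

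Klb was lower in the Zac1 libraries. Its product, beta-klotho, is the obligate co-receptor for FGF15 and FGF21. Klb (ENSMUSG00000029195, chromosome 5, 65348314 to 65384007, plus strand) had 255, 231 and 203 reads in EGFP libraries 1 to 3 and 154, 171 and 196 in Zac1 libraries 4 to 6. Scaled to library size these were 17.0, 15.5 and 13.7 CPM in EGFP and 9.58, 10 and 10.7 CPM in Zac1. The lowest EGFP library lay above the highest Zac1 library, so the groups did not overlap; EGFP 1 was the highest library and Zac1 4 the lowest. The EGFP mean was 15.4 ± 1.64 CPM and the Zac1 mean 10.1 ± 0.537 CPM (SD, n = 3). The log2 fold change, Zac1 minus EGFP, was -0.61 with a standard error (SE) of 0.11, and the level fell by 34.4%. Over the 16 alternative settings the log2 fold change ran from -0.69 to -0.49. The value nearest 0 came from leaving out both EGFP 1 and Zac1 4. Klb transcripts have a GC content of 49.5%, close to the median of all tested genes, and its log2 fold change with GC offsets was -0.65.

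Kl, which encodes alpha-klotho, the co-receptor for FGF23 best known from kidney, was practically unread. Kl (ENSMUSG00000058488, chromosome 5, 150952607 to 150993817, plus strand) had 0 reads in each EGFP library and in Zac1 4 and 5, and 1 read in Zac1 6. A count of 0 allows a level of up to 0.067 CPM over the EGFP group (3 reads of the summed libraries, counting error only). Klb was thus the only klotho co-receptor of this pair with a level that could be compared between the groups.

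**Figure D1:**
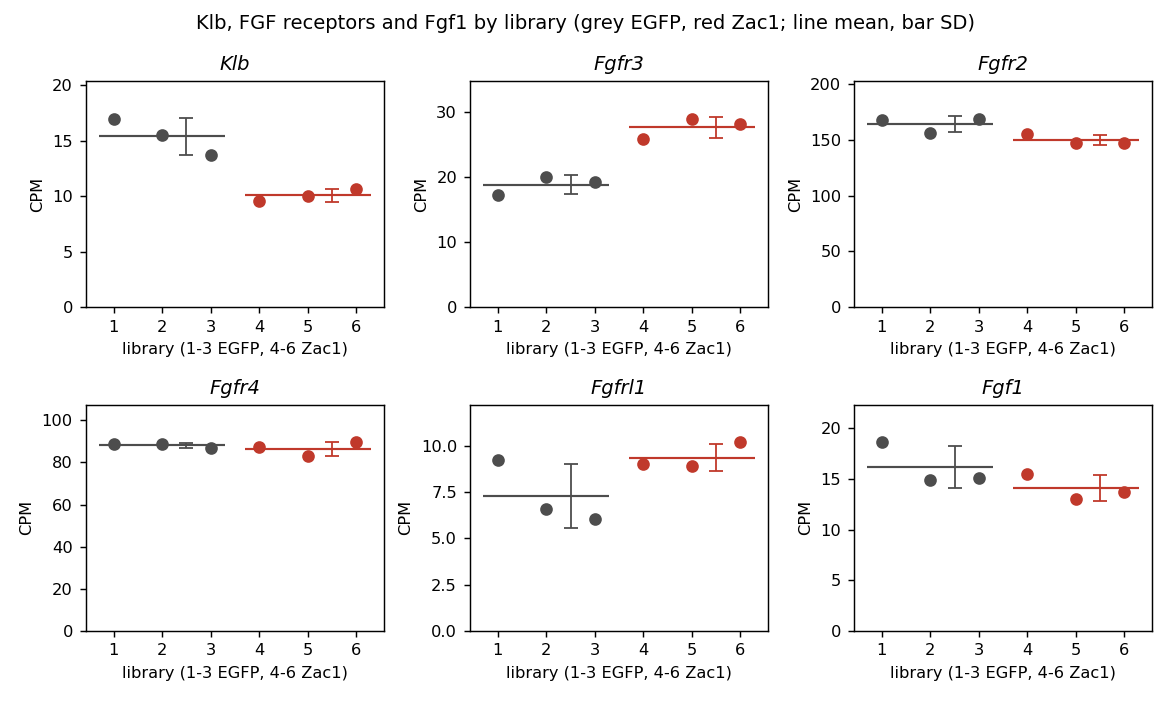
Level of each of the 6 tested genes in CPM (y axis) by library (x axis; 1 to 3 EGFP in grey, 4 to 6 Zac1 in red), with the mean as a line and the SD as a bar. Klb was 13.7 CPM or more in EGFP and 10.7 CPM or less in Zac1, Fgfr3 was 20.1 CPM or less in EGFP and 25.9 CPM or more in Zac1, and the Fgfr4 groups overlapped.

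Among the receptors, Fgfr3 was higher in Zac1. It encodes a receptor tyrosine kinase best known as a brake on bone growth. Fgfr3 (ENSMUSG00000054252, chromosome 5, 33721674 to 33737068, plus strand) had 258, 300 and 286 reads in EGFP and 416, 495 and 518 in Zac1. In CPM these were 17.2, 20.1 and 19.3 in EGFP and 25.9, 29.0 and 28.2 in Zac1. All 3 Zac1 libraries lay above all 3 EGFP libraries. The EGFP mean was 18.9 ± 1.53 CPM and the Zac1 mean 27.7 ± 1.63 CPM (SD, n = 3). This was a log2 fold change of 0.55 (SE 0.09), or 46.9% more. Over the 16 alternatives the value ran from 0.40 to 0.60. The smallest, 0.40, came with GC offsets; its transcripts have a GC content of 56.4%, near the median of the genes that were higher in Zac1. An opposite-strand gene, G630022F23Rik, overlaps Fgfr3 and had 9 reads over all libraries, beside 2273 for Fgfr3. Klb and Fgfr3 were past the threshold and the other 4 tested genes were not, where 3.78% of all tested genes were. This count is a description that supports nothing, since the set was chosen with Klb's difference known.

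Fgfr2, the receptor whose epithelial splice form binds FGF7, had the most reads of the 10 genes. Fgfr2 (ENSMUSG00000030849, chromosome 7, 130162451 to 133123350, minus strand) had 2519, 2321 and 2500 reads in EGFP and 2493, 2507 and 2713 in Zac1. In CPM these were 168, 156 and 169 in EGFP and 155, 147 and 147 in Zac1. The groups did not overlap, but the gap between EGFP 2 and Zac1 4 was narrow. Non-overlap held for 3 of the 6 tested genes (Klb, Fgfr3 and Fgfr2), and for 20.6% of all tested genes. The log2 fold change was -0.13 (SE 0.05), which did not pass the test; with GC offsets it was -0.18 and passed. The annotated Fgfr2 gene overlaps Ctbp2 on the same strand, so its counts are uncertain in the shared stretch; the table lists 70 reads for Ctbp2 and 15053 for Fgfr2 over all libraries. The table counts genes, so the splice forms of Fgfr2 were not told apart.

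Fgfr4, the receptor for FGF15 with beta-klotho, overlapped between the groups and did not pass the test. Fgfr4 (ENSMUSG00000005320, chromosome 13, 55152640 to 55168759, plus strand) had 1333, 1325 and 1284 reads in EGFP and 1400, 1415 and 1646 in Zac1. In CPM these were 88.7, 88.9 and 86.7 in EGFP and 87.1, 83.0 and 89.5 in Zac1. The groups overlapped, and both the lowest and the highest library were Zac1 libraries. The log2 fold change was -0.03 (SE 0.05). With GC offsets it was -0.25 and passed, the widest move of any of the 6 tested genes; Fgfr4 transcripts have a GC content of 58.8%. Without Zac1 5 the value was 0.01. The EGFP mean of Fgfr4 was 88.1 ± 1.24 CPM and the Zac1 mean 86.5 ± 3.25 CPM (SD, n = 3). Whether the motif shown above in its window plays any part was not tested.

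Fgfr1, the receptor through which FGF21 mainly acts with beta-klotho, was practically unread. Fgfr1 (ENSMUSG00000031565, chromosome 8, 25513654 to 25575718, plus strand) had 0 reads in each EGFP library and in Zac1 4 and 5, and 1 read in Zac1 6. No difference between the groups was detectable at this depth, and 0 reads over the EGFP group allow up to 0.067 CPM. Fgfrl1 encodes a receptor-like protein that binds FGFs but lacks the intracellular kinase domain. Fgfrl1 (ENSMUSG00000008090, chromosome 5, 108692382 to 108706924, plus strand) had 139, 98 and 90 reads in EGFP and 145, 152 and 187 in Zac1. In CPM these were 9.25, 6.57 and 6.07 in EGFP and 9.02, 8.92 and 10.2 in Zac1. EGFP 1 lay among the Zac1 libraries, and EGFP 2 and 3 lay below them. Its log2 fold change was 0.36 (SE 0.15) and did not pass the test. Without EGFP 1 it was 0.57 and passed, as it did without EGFP 1 and Zac1 4 together (0.60), while with GC offsets it was 0.16 and did not pass.

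**Figure D2:**
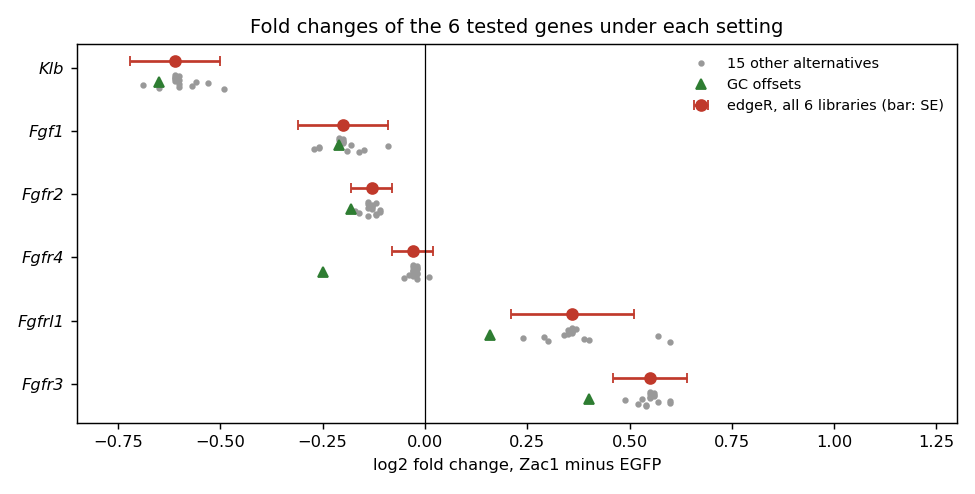
Log2 fold change, Zac1 minus EGFP (x axis), of the 6 tested genes in the edgeR fit to all libraries (red, bar SE), with GC offsets (green triangle) and in the other 15 alternatives (grey). Klb stayed between -0.69 and -0.49 and Fgfr3 between 0.40 and 0.60, while Fgfr4 was -0.03 without and -0.25 with GC offsets.

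Levels of different genes were compared as CPM per kb (1000 bases) of merged exons. In EGFP, Fgfr4 was the most abundant at 24.9 ± 0.35, followed by Fgfr2 at 15.9 ± 0.698 (SD, n = 3), and their ranges did not overlap. Klb at 3.38 ± 0.36, Fgf1 at 2.96 ± 0.38, Fgfr3 at 2.64 ± 0.213 and Fgfrl1 at 2.62 ± 0.614 formed a lower tier, in which each neighbour overlapped the next. Fgf7 at 0.137 ± 0.062 and Fgf2 at 0.0263 ± 0.0112 lay below these, and Kl and Fgfr1 were at 0. In Zac1 the order of the lower tier was Fgfr3 (3.87 ± 0.228), Fgfrl1 (3.37 ± 0.248), Fgf1 (2.58 ± 0.237) and Klb (2.22 ± 0.118), so Klb was last in the tier; Fgfr3 and Fgfrl1 overlapped there, and the ranges of the other neighbours did not. Both the order of the leading pair and the head of the lower tier depended on the length used. With the longest transcript, Fgfr3 at 4.44 ± 0.36 and Klb at 4.35 ± 0.462 CPM per kb headed the lower tier in EGFP with overlapping ranges, and Klb was again last of it in Zac1 (2.85 ± 0.152). With the longest transcript of each gene, Fgfr2 stood at 37.0 ± 1.63 and Fgfr4 at 26.5 ± 0.372 CPM per kb in EGFP, because the merged exons of Fgfr2 (10328 bases) are longer than its longest transcript (4429 bases). The merged exons of Fgfr2 include the stretch shared with Ctbp2, where its counts are uncertain. Its level per kb of merged exons, and its share in the receptor sum below, are uncertain for that reason.

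**Figure D3:**
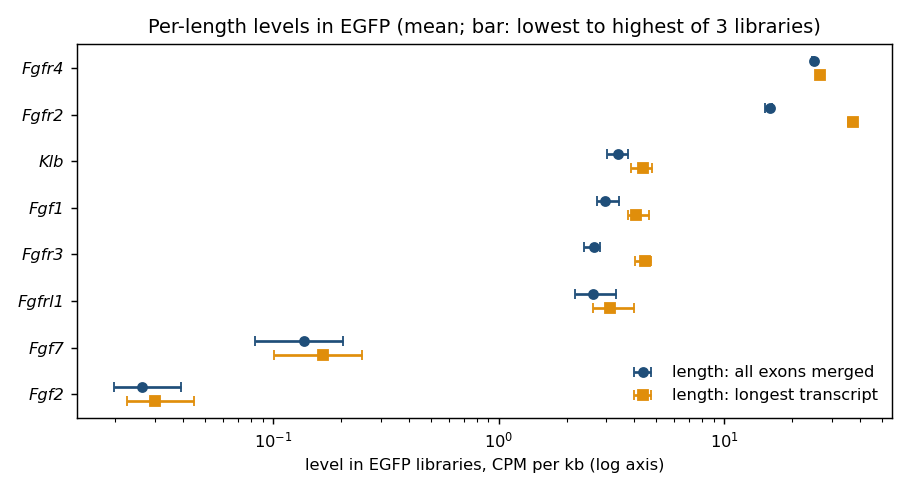
Mean level in the EGFP libraries (x axis, CPM per kb, log axis) of the 8 genes with reads, with the length taken from merged exons (blue circles) or the longest transcript (orange squares); bars run from the lowest to the highest of the 3 libraries. Fgfr4 leads with merged exons (24.9) and Fgfr2 with the longest transcript (37.0), and Kl and Fgfr1, at 0, are not drawn.

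The balance of beta-klotho to its liver receptor followed from these levels. Klb per Fgfr4, both as CPM per kb of merged exons, was 0.149, 0.136 and 0.123 in EGFP and 0.0856, 0.0941 and 0.0927 in Zac1. The groups did not overlap. Fgfr4 transcripts outnumbered Klb transcripts by 7.4 ± 0.705 to 1 in EGFP and 11.0 ± 0.586 to 1 in Zac1 (SD, n = 3). This ratio uses the Klb values by which the set was chosen and is a description only. The summed level of the 4 receptor kinases was 43.4 ± 0.361 CPM per kb in EGFP and 42.8 ± 0.964 in Zac1. Within that sum Fgfr3 made up 6.08% ± 0.536 in EGFP and 9.05% ± 0.675 in Zac1, Fgfr2 made up 36.6% ± 1.34 and 33.9% ± 0.971, and Fgfr4 57.3% ± 1.10 and 57.1%. With the longest transcript as length, the share of Fgfr3 was 6.54% in EGFP and 9.83% in Zac1. Fgfr2 then had the largest share, 54.5% in EGFP and 51.0% in Zac1, and Fgfr4 had 39.0% and 39.2%. Which of these receptors led therefore depended on the length used. Fgfr4 per Klb was then 6.14 ± 0.586 in EGFP and 9.14 ± 0.469 in Zac1.

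Of the 3 ligands, Fgf1 alone was abundant enough to test. FGF1 binds all FGF receptor kinases and is made without a classical secretion signal. Fgf1 (ENSMUSG00000036585, chromosome 18, 38838673 to 38929472, minus strand) had 279, 222 and 223 reads in EGFP and 249, 221 and 253 in Zac1. In CPM these were 18.6, 14.9 and 15.1 in EGFP and 15.5, 13.0 and 13.7 in Zac1. The groups overlapped, with EGFP 1 the highest library. The log2 fold change was -0.20 (SE 0.11), ran from -0.27 to -0.09 over the alternatives and passed the test in 0 of the 16. Fgf2, a ligand also made without a classical secretion signal (ENSMUSG00000037225, chromosome 3, 37348346 to 37410108, plus strand), had 4, 2 and 2 reads in EGFP and 8, 6 and 3 in Zac1. The ratio of the summed reads per library size was 1.85, with a 95% interval from 0.755 to 4.94 for counting error. Reads of Fgf2 are uncertain, since Nudt6 overlaps it on the opposite strand and had 518 reads over all libraries, and the strand setting of the counting is not stated. Fgf7, the keratinocyte growth factor usually made by mesenchymal cells (ENSMUSG00000027208, chromosome 2, 126034658 to 126091185, plus strand), had 10, 6 and 4 reads in EGFP and 4, 8 and 15 in Zac1, a ratio of 1.17 with an interval from 0.634 to 2.21. The groups overlapped for both Fgf2 and Fgf7.

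Among the 19 other FGF genes, 3 reached the count minimum, and 2 of these were higher in Zac1 (Fgf11 and Fgf13), where 3.12% of all tested genes were. Fgf11 reached the minimum only through the Zac1 libraries, so its call follows in part from the filter and the count of 2 supports nothing. Without EGFP 1 and Zac1 4 together, 4 genes reached the minimum and 3 of them were higher, where 7% of all tested genes were. Fgf15 reached it there only through the Zac1 libraries, so that count supports nothing either. Fgf11 and Fgf13 belong to the intracellular FGF group, whose products are not secreted and act on ion channels. Fgf11 had 3, 2 and 0 reads in EGFP and 22, 41 and 49 in Zac1. The ratio of summed reads per library size was 19.5, with a 95% interval from 8.09 to 61.1 for counting error. Fgf13 rose from 24.8 ± 0.435 to 31.7 ± 2.32 CPM (SD, n = 3). The log2 difference was 0.35 (SE 0.08, edgeR adjusted p = 0.0222). That call was lost without EGFP 2, without EGFP 3 or without Zac1 6, with adjusted p up to 0.113. The third, Fgf20, differed by 0.05 on the log2 scale (edgeR adjusted p = 0.966). Fgf15, the hormone that beta-klotho and FGFR4 receive, was singled out after its values were seen: it had 0 reads in each EGFP library and 14, 20 and 22 in the Zac1 libraries. Against a floor of 3 reads over the EGFP group it was at least 16.2-fold higher in Zac1. It was below the count minimum and was not tested in the main fit. With a minimum mean count of 1 it passed (edgeR adjusted p = 0.000408), which supports nothing for a gene picked by its values. Fgf9, a paracrine ligand also below the minimum and also singled out by its values, had 1, 2 and 1 reads in EGFP and 10, 11 and 8 in Zac1. The ratio was 6.30 (95% interval 2.21 to 24.7). At a minimum mean count of 1 Fgf9 passed as well (edgeR adjusted p = 0.0397). Fgf21 had 0 reads in EGFP and 1 in Zac1 in all, and 12 of the 19 genes had 10 reads or fewer over the 6 libraries.

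**Figure D4:**
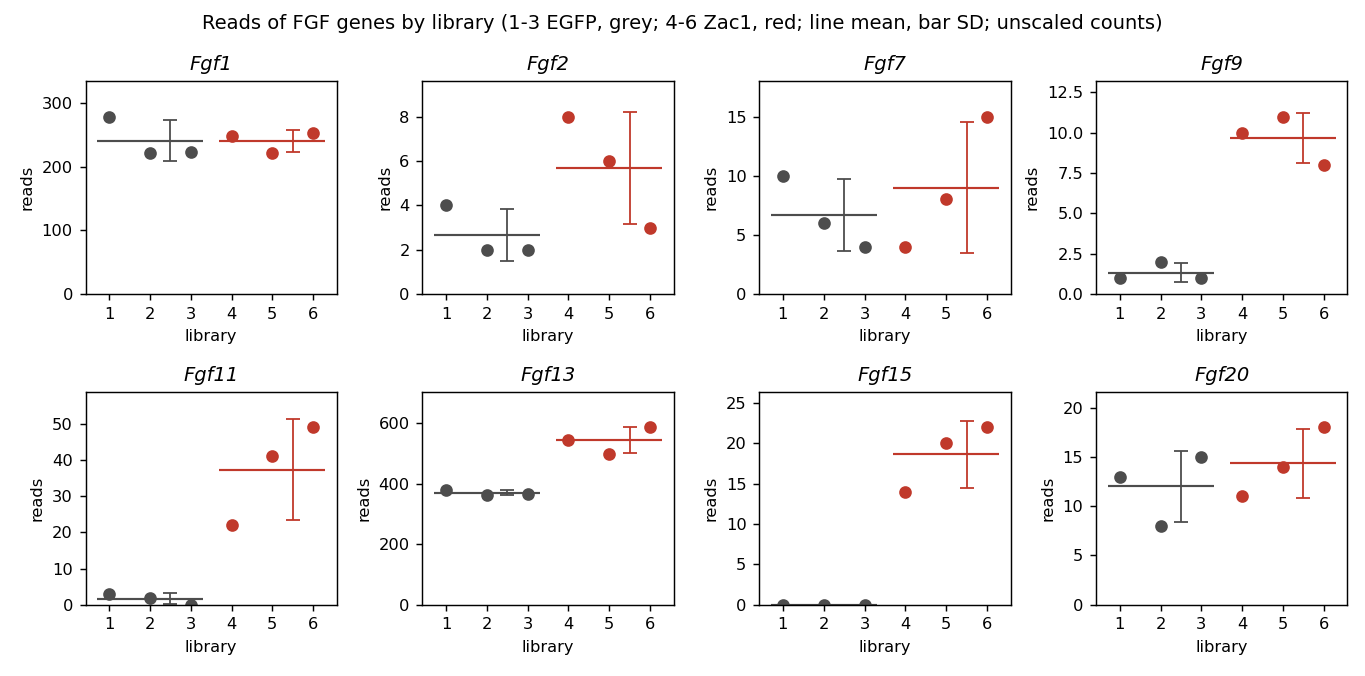
Reads, not scaled to library size (y axis), of the 3 ligands and 5 further FGF genes in each library (x axis; 1 to 3 EGFP in grey, 4 to 6 Zac1 in red), with the mean as a line and the SD as a bar. Fgf1, Fgf2 and Fgf7 overlap between the groups, whereas Fgf9, Fgf11, Fgf13 and Fgf15 have more reads in each Zac1 library than in any EGFP library; the Zac1 libraries are also the deeper ones.

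The pathway around these receptors was described by 6 lists of genes chosen by role, with 96 tested genes in all. Of these, 6 were higher (Fgf11 among them) and 1 lower, where 3.12% of all tested genes were higher and 0.668% lower. Shares of all tested genes under the other rules used below were as follows. At an unadjusted p under 0.05, 9.41% were higher and 6.43% lower. DESeq2 called 3.53% and limma 3.69% in either direction. Of the 12130 genes, DESeq2 called 334 higher and 94 lower, and limma 374 higher and 73 lower. With GC offsets 2.78% were higher and 5.98% lower. Without EGFP 1 and Zac1 4, a fit of 2 against 2 libraries that shares the spread almost wholly across genes, 7% were higher and 4.99% lower. The pathway genes' median log2 fold change was 0.04, beside 0.00 over all tested genes. Of 13 tested genes for FGF binding and processing, 1 was higher and 1 lower (list median 0.02); without EGFP 1 and Zac1 4, 2 were higher and 1 lower. Flrt1, a membrane protein with leucine-rich repeats of a family that binds FGF receptors, rose from 0.826 ± 0.0964 to 4.32 ± 0.84 CPM (SD, n = 3; log2 fold change 2.37, SE 0.25, edgeR adjusted p = 0.000103). It passed in all 15 alternatives in which it was tested. Fgfr1op fell by 0.33 on the log2 scale (SE 0.08, edgeR adjusted p = 0.0256); it is named for a fusion with Fgfr1 in leukaemia, encodes a centrosomal protein and is no part of FGF signalling. Leaving out any of EGFP 1, EGFP 3, Zac1 5 and Zac1 6 ended its call, with adjusted p up to 0.142.

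The 33 adaptors and RAS-ERK components, all tested, held 0 genes past the edgeR test and a median log2 fold change of -0.01. At an unadjusted p under 0.05, 2 were higher and 2 lower. DESeq2 and limma called 0, 3 were lower with GC offsets, and 1 was higher and 1 lower without EGFP 1 and Zac1 4. The smallest p-values belonged to Pik3ca, a catalytic subunit of PI3 kinase (-0.18, SE 0.06, edgeR adjusted p = 0.117), and Rps6ka1, a kinase downstream of ERK (0.28, SE 0.09, edgeR adjusted p = 0.129). Over the alternatives the adjusted p of Pik3ca ran from 0.0075 to 0.476 and that of Rps6ka1 from 0.0111 to 0.607. The lowest of each came without EGFP 1 and Zac1 4 together; Pik3ca also passed without Zac1 4 (0.0331) and Rps6ka1 without EGFP 1 (0.0469). Frs2, the adaptor that docks on FGF receptors, had an EGFP mean of 50.5 ± 4.39 CPM and a Zac1 mean of 49.3 ± 4.68 CPM (SD, n = 3).

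Of 18 tested feedback genes and ERK targets, 3 were higher and 0 lower in Zac1 (edgeR), with a list median of 0.15. At an unadjusted p under 0.05, 10 were higher and 1 lower. Il17rd, 1 of these 10, had 7, 7 and 8 reads in EGFP and 14, 20 and 27 in Zac1. It reached the count minimum only through the Zac1 libraries, so its place in that count follows in part from the filter. DESeq2 called 2 higher and limma 3, neither any lower, and with GC offsets 3 were higher and 1 lower at a list median of 0.07 beside -0.05 for all genes. Without EGFP 1 and Zac1 4, as without Zac1 4 alone, 5 were higher and 0 lower. Of all 12116 genes tested without Zac1 4 alone, 584 were higher. The other single libraries left out gave fewer: 1 higher without EGFP 1, 2 without EGFP 2, and 0 without EGFP 3, Zac1 5 or Zac1 6. Over all tested genes, 335 of 12168 were higher without EGFP 1 and 305 of 12173 without EGFP 2. The same counts were 214 of 12182 without EGFP 3, 187 of 12083 without Zac1 5 and 196 of 12058 without Zac1 6. Spry4, a Sprouty inhibitor of receptor tyrosine kinase signalling, rose from 3.49 ± 0.201 to 5.59 ± 0.543 CPM (SD, n = 3; log2 fold change 0.68, SE 0.16, edgeR adjusted p = 0.0274). Etv4, an ETS transcription factor downstream of FGF, rose from 25.5 ± 2.35 to 32.4 ± 0.771 CPM (0.35, SE 0.08, edgeR adjusted p = 0.0274). Egr1, an immediate early transcription factor, rose from 18.1 ± 3.99 to 27.6 ± 4.62 CPM (0.61, SE 0.15, edgeR adjusted p = 0.0304). None of these 3 calls held in every alternative. Spry4 lost its call with DESeq2 and without EGFP 1, 2 or 3 or Zac1 5 or 6 (adjusted p up to 0.176). Etv4 lost it with GC offsets and when EGFP 3, Zac1 5 or Zac1 6 was left out (up to 0.373). Egr1 lost it at a minimum mean count of 50 and when any of EGFP 1, EGFP 3, Zac1 5 and Zac1 6 was left out (up to 0.169). Dusp6, the ERK phosphatase often used as a readout of FGF signalling, differed by -0.01 on the log2 scale (edgeR adjusted p = 0.947). Dusp5 of the same list differed by 0.23 (edgeR adjusted p = 0.0517) and Dusp4 by -0.20 (edgeR adjusted p = 0.102). These Dusp genes were looked at after their values were seen, so none of them stands for the list.

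The heparan sulfate list, the enzymes and core proteins of the glycan that paracrine FGFs need, held 25 tested genes of 37 and 0 past the edgeR test, with a median of 0.04. At an unadjusted p under 0.05, 5 were higher and 1 lower; DESeq2 and limma called 0. With GC offsets 1 was higher and 2 lower, without EGFP 1 and Zac1 4 together 2 were higher and 1 lower, and without Zac1 4 alone 1 was higher. The smallest p-values were those of Agrn, a heparan sulfate core protein (-0.15, SE 0.05, edgeR adjusted p = 0.10), and Hs6st1, a sulfotransferase (0.23, SE 0.07, edgeR adjusted p = 0.111). Agrn passed with GC offsets (adjusted p = 0.000588) and without EGFP 1 and Zac1 4 (0.00594), and reached 0.365 at most. Hs6st1 passed without that pair (0.000346), without Zac1 4 (0.0175) and with no count filter (0.0422), and reached 0.783 with GC offsets. The fit with no count filter shares the spread wholly across genes. The bile acid list mixes targets of FGF15, beta-klotho and FGFR4 with regulators and transporters. Of its 12 genes, 4 were tested and 0 passed by edgeR, DESeq2 or limma, nor did any at an unadjusted p under 0.05. Cyp7a1 was not among the 4, so they do not read the output of that axis. Nr5a2 (0.19, edgeR adjusted p = 0.57) and Nr1h4, the bile acid receptor (-0.06, edgeR adjusted p = 0.701), had the smallest p-values. Cyp7a1, the rate-limiting enzyme of bile acid synthesis and the classical target of the axis, had 1 read in EGFP and 0 in Zac1 over all libraries, so its response could not be read in these cells. Nr0b2, a repressor of Cyp7a1 singled out after its values were seen, had 2 reads in EGFP and 16 in Zac1. The ratio was 6.95 (95% interval 1.63 to 62.3, counting error only). It was below the count minimum, and with a minimum mean count of 1 it did not pass (edgeR adjusted p = 0.149).

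**Figure D5:**
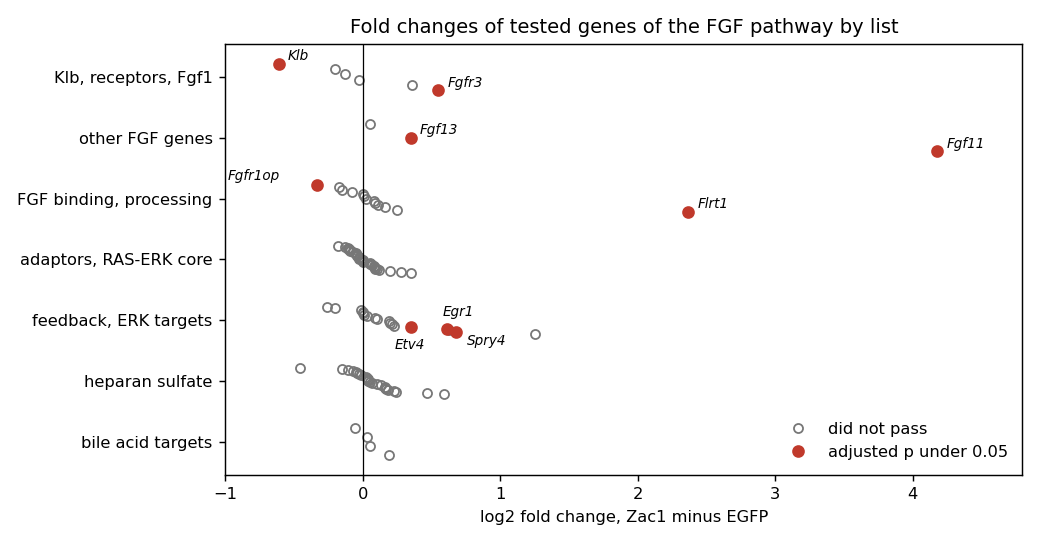
Log2 fold change, Zac1 minus EGFP (x axis), of each tested gene in the set that holds Klb and in the 6 pathway lists (y axis); red points passed the edgeR test at an adjusted p under 0.05 and open points did not. The 33 adaptors and RAS-ERK components lie near 0 with 0 past the test, Klb is at -0.61, and Fgf11 at 4.18 lies farthest from 0.

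The genes whose pattern over the 6 libraries was most like that of Klb were sought among 9971 genes that averaged 50 or more reads per library. The measure was the root-mean-square difference of log2(CPM + 1) profiles, each centred on its own mean, for which the median over all candidates was 0.304. Among the 5 nearest were Nqo1, a quinone reductase (0.0798), Ccdc171 (0.109), Slc3a1, a subunit of a cystine and basic amino acid transporter (0.116), and Zfp955a (0.122). Nqo1 was at 15.7, 14.7 and 13.0 CPM in EGFP and 10.6, 9.92 and 10.9 in Zac1. As with Klb, EGFP 1 was its highest library and all Zac1 libraries lay below all EGFP libraries. Nqo1 was picked by its likeness to Klb over these same libraries, so this is a description only. Slc3a1 overlaps Prepl on the opposite strand, and Prepl had 3984 reads beside its 703, so its counts are uncertain. With a pseudocount of 0.1 instead of 1, 4 of the 5 nearest genes were again among the 5 nearest.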

How the data were processed

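For 6 polyA RNA-seq libraries (3 EGFP, 3 Zac1) the authors deposited gene-level read counts in a single table. The submitters' processing notes name STAR, HTSeq, DESeq2 and FastQC without versions. The genome build, annotation and strand setting were not given in the sources used here. A directional kit and DNase treatment are named per the labels' protocols. The table is called normalized, but its values behave as raw counts: all are whole, totals run from 14801240 to 18302538, and none of the whole numbers from 1 to 40 is missing in any library. Replicates differed by more than sampling noise (chi-square per degree of freedom 2.2 to 8.22).

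Symbols, coordinates, lengths and GC content came from GENCODE M21 (GRCm38), matched by gene ID for 49326 of 49585 genes. The 12130 genes with a mean count of 10 or more were tested for Zac1 against EGFP, two-sided, with edgeR 4.0.16 in R 4.3.3 (TMM factors, quasi-likelihood, prior count 0.125, Benjamini-Hochberg adjustment over all tested genes, threshold 0.05). CPM uses TMM-scaled totals. On simulated counts for these 12130 genes the fit recovered 79.1% of genes changed 1.5-fold, 92.4% changed 2-fold and 100.0% changed 4-fold, and 5.8% of its calls were false. The simulated counts held no GC trend and no libraries that stood apart, so these rates need not hold for the real libraries. The 16 alternatives covered scaling, count minimum, prior count, DESeq2 1.42.0, limma 3.58.1 on log2(CPM + 1), offsets from a loess curve on GC content, and libraries left out.

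The 10 genes and all lists were chosen with earlier results of these data known. The text names all 10; of each pathway list up to 4 genes past the test by p, or otherwise the 2 with the smallest p; and the 5 genes most like Klb, leaving out predicted genes. A gene that this rule takes is not reported here. Frs2, Fgf9, Fgf15, Fgf20, Fgf21, Il17rd, Dusp4, Dusp5, Dusp6, Cyp7a1 and Nr0b2 were named after their values were seen. Intervals on ratios of summed reads are exact (Clopper-Pearson) and, like the floor of 3 reads, cover counting error only, since reads without molecular identifiers are not independent molecules. Protein sequences were not used here.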

Additional observations from a re-analysis of the deposited data

How the results depend on the processing

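Klb and Fgfr3 kept their direction in all 16 alternatives; the set was chosen with Klb's difference known, so this and the next counts are a description. The number of these 10 genes past the threshold was 2 in the main fit and 4 with GC offsets, which added Fgfr2 and Fgfr4; leaving out a single library gave 2 to 3, the third being Fgfrl1 without EGFP 1. The log2 fold change of Fgfr4 turned from -0.03 to 0.01 without Zac1 5 and ran from -0.05 to 0.01 when 1 library was left out. Over all genes, 459 passed in the main fit, 979 with no count filter, 241 with a minimum mean count of 50, 1062 with GC offsets, 1461 without EGFP 1 and Zac1 4 together, and 206 to 963 when 1 library was left out. Of the pathway genes, 7 passed in the main fit, 11 with no count filter, 4 at a minimum of 50, 14 with GC offsets, 16 without EGFP 1 and Zac1 4 together, and 2 to 12 when 1 library was left out. The fit with no count filter shares the spread wholly across genes, and the fit without that pair almost wholly. Calls from these fits carry less weight than those of the main fit. The share of higher genes was 82.4% in the main fit, 31.7% with GC offsets (337 higher, 725 lower), 60.6% without Zac1 4 and 58.4% without EGFP 1 and Zac1 4. The cause of these shifts was not tested. No paired analysis was possible because the EGFP libraries are numbered 1 to 3 and the Zac1 libraries 4 to 6, so the groups share no number. Depth limits Kl, Fgfr1, Fgf2 and Fgf7, which stayed under the count minimum.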
